A study of Mus musculus with 6 samples.

Results

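The globin genes of the mouse were examined in megakaryocyte–erythroid progenitors (MEPs), bone marrow cells from which both the erythroid and the megakaryocyte lineages arise. The globin chaperone *Ahsp* was sought as well. The members were set by name, as the adult alpha chain genes *Hba-a1* and *Hba-a2*, the adult beta chain genes *Hbb-b1* and *Hbb-b2*, the embryonic genes *Hba-x*, *Hbb-bh1* and *Hbb-y*, and *Ahsp*. Of these 8 genes, the 4 adult chain genes have a row among the 12101 genes of the expression table. The embryonic genes *Hba-x*, *Hbb-bh1* and *Hbb-y* have an identifier in the annotation but no row in the table. For *Ahsp* no identifier was found in the references used, under this symbol or *Eraf*, and it was not analysed here.

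All libraries came from adult Nanog-tg mice, labelled as strain CD-1, which is an outbred stock. In these mice a doxycycline-responsive activator (M2-rtTA) is driven from the *Rosa26* locus and a tetO-*Nanog* cassette lies at *Col1a1*, so that the induced gene is not limited to blood cells, and both groups carry both alleles. The dox-treated group received doxycycline (dox) in the drinking water for 5 days and the untreated group did not, with 3 replicates each. No group of dox-treated mice without the transgene was analysed here, so that dox and *Nanog* cannot be told apart. MEPs had been sorted as lineage-, cKit+, Sca1- cells by CD34 and CD16/32, and whether each replicate came from a separate animal is not given in the sources used here, so that p-values measure the spread between these samples.

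Hemoglobin is a tetramer of alpha and beta chains held in equal number, each chain carrying a heme. Alpha chains are encoded on chromosome 11 and beta chains on chromosome 7, each cluster being switched on during erythroid maturation by distal enhancers bound by *Gata1*, *Tal1*, *Ldb1* and *Klf1* proteins. MEPs lie before the erythroblast stages in which globin transcripts come to dominate the cell. Unpaired alpha chains precipitate, and the chaperone encoded by *Ahsp* binds them until a beta chain is available.

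The copies of each adult chain are near identical, which decides how far reads can be assigned to each of them. In the NCBIM37 build, *Hba-a1* lies on chromosome 11 from 32183511 to 32184465 and *Hba-a2* from 32196489 to 32197301, both on the plus strand with starts 12978 bases apart. *Hbb-b1* lies on chromosome 7 from 110975048 to 110976610 and *Hbb-b2* from 110961038 to 110962510, both on the minus strand with starts 14100 bases apart. The coding sequences of *Hba-a1* and *Hba-a2* are 429 bases long and differ by the single substitution C381T, and those of *Hbb-b1* and *Hbb-b2* are 444 bases long and differ by C417T, with positions counted from the A of the start codon. Both substitutions lie in exon 3 and are silent, in codon 127 of the alpha chains (aspartate) and codon 139 of the beta chains (alanine). The stretches of 61 bases around them are given 5′ to 3′ on the coding strand, with the differing base in capitals, because they hold the only coding difference by which reads of the copies can be separated. They span chr11:32184303-32184363 (*Hba-a1*), chr11:32197120-32197180 (*Hba-a2*), chr7:110975186-110975246 (*Hbb-b1*) and chr7:110961177-110961237 (*Hbb-b2*).
Hba-a1: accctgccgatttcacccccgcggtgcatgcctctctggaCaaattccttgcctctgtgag
Hba-a2: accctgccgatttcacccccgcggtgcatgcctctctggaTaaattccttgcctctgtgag
Hbb-b1: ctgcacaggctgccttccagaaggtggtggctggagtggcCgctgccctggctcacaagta
Hbb-b2: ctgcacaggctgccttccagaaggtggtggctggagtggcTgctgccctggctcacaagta

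Every window of 50 bases along the longest annotated transcript of each gene was compared with the transcripts of all other protein-coding genes. In *Hba-a1*, 211 of 650 windows (32.5%) were found in no other gene, and in *Hba-a2* 66 of 505 (13.1%). In *Hbb-b1* the number was 348 of 729 (47.7%), and in *Hbb-b2* 273 of 654 (41.7%). All the remaining windows were shared with the other copy of the same chain only, so that no window was shared between alpha and beta. Summed alpha and summed beta can therefore be separated by sequence, whereas values of single copies rest on how the authors' quantification split shared reads and are uncertain. The *Hba-a1* windows found in no other gene include all those starting at bases 1 to 161. There its annotated transcript extends further upstream, with the coding sequence starting at base 197, against base 36 in *Hba-a2*. Those bases lie before the RefSeq start, in sequence that occurs at both alpha copies. The *Hba-a1* share is thus set in part by annotated length. RefSeq names the genes at the positions of *Hbb-b1* and *Hbb-b2* as *Hbb-bs* and *Hbb-bt*, and the beta globin haplotype of the mice is not given in the sources used here. Mapping to the reference alleles in outbred mice may move reads between copies, which was not tested.

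**Figure D1:**
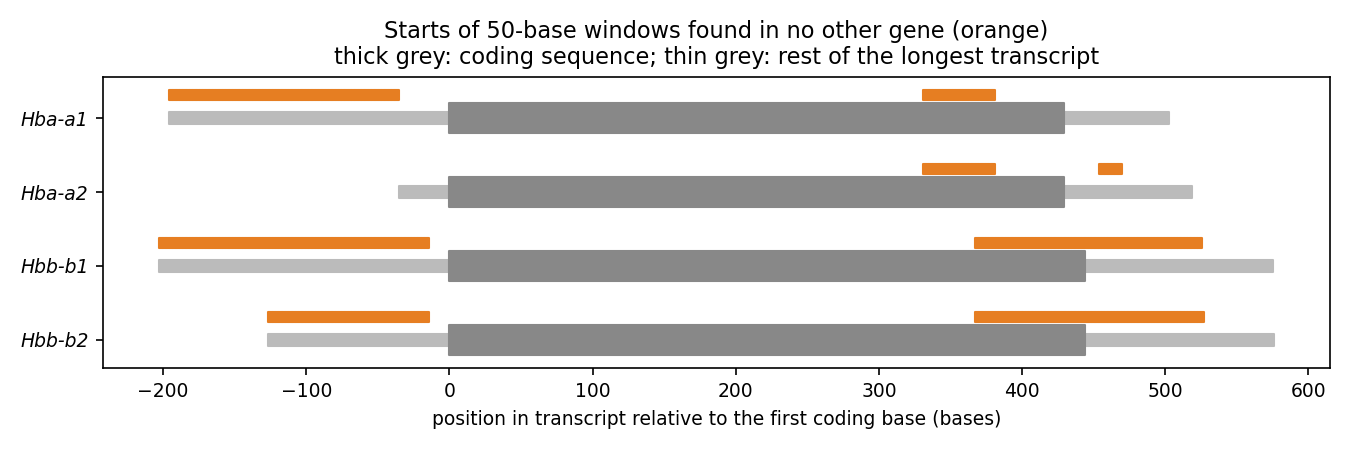
Each grey row is the longest annotated transcript of 1 adult globin gene, with the coding sequence as the thicker bar and the x axis in bases from the first coding base, and orange marks the starts of 50-base windows found in no other gene. Most of the coding sequence of each gene has no orange mark above it, and *Hba-a2* has the fewest such windows, 66 of 505. The marks before the coding sequence of *Hba-a1* lie upstream of where the annotated *Hba-a2* transcript begins.

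The promoters differ between the beta copies more than the coding sequences do, while those of the alpha copies do not. In the 250 bases before the RefSeq start (GRCm38.p6), the windows of *Hba-a1* and *Hba-a2* each occurred at both alpha copies, whereas those of *Hbb-b1* and *Hbb-b2* were 69.3% identical when aligned. On both strands, CACCC occurred 2 times in each alpha window, 1 time in that of *Hbb-b1* and 3 times in that of *Hbb-b2*, against 52.0% of 32851 promoters with at least 1 match. CCAAT occurred 1 time in each window but that of *Hbb-b2*, with 3 (33.9% of promoters hold it), and TATAA 1 time in each but that of *Hbb-b2*, with 2 (22.8%). AGATAA or TGATAA, the letters of a GATA motif, occurred 1 time in each window except that of *Hbb-b2*, which held none (16.6%). These are matches of letters, and occupancy was not measured.

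Libraries held between 11264803 and 16153600 reads on listed genes, and a read was worth between 0.0642 and 0.0910 counts per 1000000 reads (CPM). The level at 3 reads, taken as the smallest amount told apart from 0, was between 0.193 and 0.273 CPM, which covers counting error only. *Nanog*, the induced gene, had 17062, 19609 and 15959 reads in dox-treated replicates 1, 2 and 3 and 9, 13 and 1 in the untreated replicates (log2 fold change 11.37, adjusted p = 0.0035, limma), as the labels give. In a principal component analysis dox-treated replicate 3 stood apart on the second component, at 51.8 against -20.2 to 4.86 for the other libraries. The erythroid and progenitor genes *Car1*, *Epor* and *Kit* were read in all libraries, with *Car1*, a carbonic anhydrase of red cells, between 1280 and 3359 CPM. Transcripts of the gate's own antigens separated the groups. *Cd34* was at 121.2 ± 54.9 CPM with dox and 43.2 ± 17.4 CPM without, *Fcgr3*, which encodes CD16, at 9.19 ± 2.73 CPM with dox and 19.4 ± 8.28 CPM without, and *Kit* at 315.6 ± 9.81 and 418.7 ± 81.8 CPM (SD, n = 3), without overlap between the groups in any of them, as for 36% of all genes tested. None of the 3 passed the adjusted threshold (limma, with 2 of them at an unadjusted p under 0.05), and their part in the globin values was not tested. *Ly6a*, which encodes the Sca1 antigen that the gate removes, has no row in the table.

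Adult globin transcripts were present in all 6 libraries, at a small share of the reads. The 4 genes together took between 0.0112% and 0.0302% of reads, from 238 to 1425 reads for a gene in a library. Relative to transcript length, mean levels were highest for *Hba-a2*, at 141.4 ± 63.6 CPM per kb with dox and 127.7 ± 27.4 without (SD, n = 3), which is at percentile 95.6 of the genes with a known length. *Hba-a1* followed in the untreated group at 84.97 ± 6.53 CPM per kb, then *Hbb-b2* at 40.6 ± 7.68 and *Hbb-b1* at 30.8 ± 5.42. In the dox-treated group the order below *Hba-a2* was *Hbb-b1* at 79.2 ± 39.2 CPM per kb, *Hbb-b2* at 55.6 ± 24.4 and *Hba-a1* at 53.2 ± 22.4, and with dox the ranges of all 4 genes overlapped. In the untreated group the ranges of *Hbb-b1* and *Hbb-b2* overlapped, and the other neighbours in the order lay apart. This order rests on the annotated lengths, 699 bases for *Hba-a1* and 554 for *Hba-a2*, and on the split of reads between copies. It is therefore uncertain. In CPM without division by length, the untreated ranges of *Hba-a1* and *Hba-a2* overlapped, at 54.1 to 62.2 and 61.8 to 88.3.

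*Hba-a1*, an adult alpha chain gene, was at 19.7, 42.0 and 49.9 CPM in dox-treated replicates 1, 2 and 3 and at 62.2, 61.9 and 54.1 CPM in the untreated replicates. All dox-treated libraries were below all untreated libraries, the highest dox-treated value lying close under the lowest untreated value. The means were 37.2 ± 15.6 CPM with dox and 59.4 ± 4.56 CPM without (SD, n = 3), and a two-sided exact permutation test gave p = 0.1, the smallest it can give for 3 libraries against 3. The limma fit over 12088 genes gave a log2 fold change of -0.78 with a standard error of 0.35 (95% interval -1.64 to 0.08, adjusted p = 0.20), which did not pass the threshold of 0.05. Without dox-treated replicate 1 it was -0.37 (adjusted p = 0.26, limma).

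*Hba-a2*, the other adult alpha chain gene, was at 38.4, 105.1 and 91.4 CPM with dox and at 88.3, 61.8 and 62.2 CPM without. Dox-treated libraries lay both below and above all untreated ones, so the groups overlapped. Its means of 78.3 ± 35.2 and 70.8 ± 15.2 CPM (SD, n = 3; exact permutation p = 0.8) correspond to a log2 difference of 0.04 (standard error 0.41, 95% interval -0.95 to 1.04, adjusted p = 0.96, limma). The sign of this value turned under 5 of 17 alternative settings, to as low as -0.23 without dox-treated replicate 2, so no direction is given. The interval does not exclude a change of nearly 1 on the log2 scale either way.

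*Hbb-b1*, an adult beta chain gene, was at 26.7, 83.3 and 74.8 CPM with dox and at 28.8, 21.4 and 21.7 CPM without. Dox-treated replicates 2 and 3 were above all untreated libraries, while dox-treated replicate 1 lay among them. The means were 61.6 ± 30.5 CPM with dox and 23.98 ± 4.22 CPM without (SD, n = 3; exact permutation p = 0.2). The log2 fold change was 1.21 (standard error 0.45, 95% interval 0.11 to 2.32, adjusted p = 0.14, limma). The p of the same limma fit before adjustment was 0.036. Without dox-treated replicate 1 the log2 fold change was 1.73 with an adjusted p of 0.032 (limma), the only 1 of 17 alternatives in which an adult globin gene passed the threshold.

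*Hbb-b2*, the second adult beta chain gene, was at 19.3, 48.5 and 49.5 CPM with dox and at 28.9, 33.7 and 22.9 CPM without. Dox-treated replicate 1 was below all untreated libraries and the other two dox-treated libraries above them. The means were 39.1 ± 17.1 and 28.5 ± 5.40 CPM (SD, n = 3; exact permutation p = 0.4), with a log2 difference of 0.35 (standard error 0.40, 95% interval -0.63 to 1.33, adjusted p = 0.58, limma). Without dox-treated replicate 1 it was 0.80 (adjusted p = 0.13, limma).

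**Figure D2:**
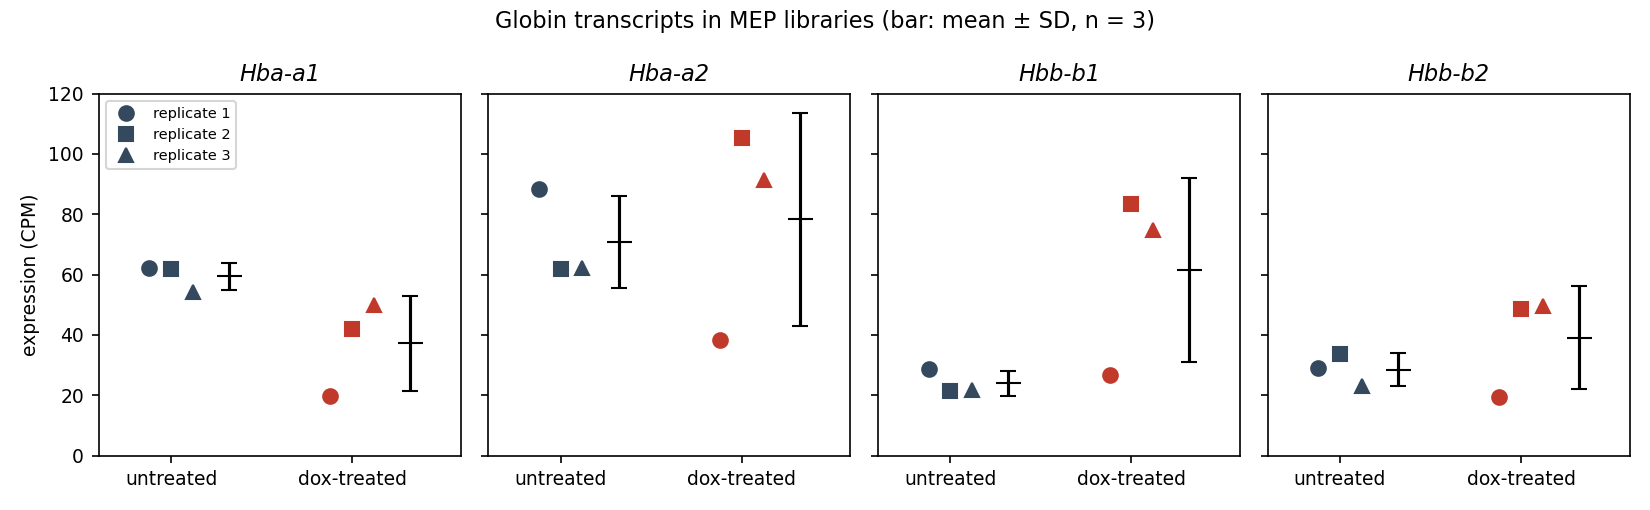
Expression in CPM (y axis, from 0) of the 4 adult globin genes in the untreated and dox-treated libraries, with a symbol per replicate and bars for the mean ± SD of 3 libraries. Dox-treated replicate 1 is the lowest dox-treated library in each panel, and only for *Hba-a1* do the groups not overlap.

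Of the 4 adult globin genes none passed an adjusted p of 0.05 in limma and 1, *Hbb-b1*, had an unadjusted p under 0.05. Over all 12088 genes tested, 7.77% passed the adjusted threshold and 29.2% the unadjusted. Groups did not overlap for 1 of the 4, *Hba-a1*, against 36% of all genes, of which 18.2% with all dox-treated libraries lower. With 4 genes, these counts are no result about the globins as a group. In bulk samples, fewer cells with globin transcripts and fewer transcripts per cell cannot be told apart.

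The spread within the dox-treated group was shared by all 4 genes. Dox-treated replicate 1 was the lowest dox-treated library for each of them. The lower of the other two libraries was 2.13 times that replicate for *Hba-a1*, 2.38 times for *Hba-a2*, 2.80 times for *Hbb-b1* and 2.51 times for *Hbb-b2*. The library that stood apart across all genes, dox-treated replicate 3, was close to dox-treated replicate 2 in its globins. *Slc4a1*, the anion exchanger of the red cell membrane, was also lowest with dox in replicate 1, at 6.70, 11.4 and 15.6 CPM against 11.2, 9.53 and 7.73 CPM without. Over the 32 erythroid membrane and late erythroid genes, the mean log2 level was 6.28, 6.36 and 6.67 with dox and 6.63, 6.67 and 6.58 without, so that replicates 1 and 2 were alike in this list while their globins differed.

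While single copies varied, the balance of alpha to beta transcripts held closely within each group. Summed alpha over summed beta, in CPM per kb, was 1.58, 1.42 and 1.42 in dox-treated replicates 1, 2 and 3 and 3.17, 2.65 and 3.14 in the untreated replicates. The groups did not overlap, and dox-treated replicate 1, low in all 4 genes, had a ratio near that of the other dox-treated libraries. Among single genes the groups did not overlap for 36% of those tested, and the share for ratios of genes was not computed. The mean ratio was 1.47 ± 0.0923 with dox and 2.99 ± 0.293 without (SD, n = 3), a difference of -1.02 in mean log2 ratio. As a score over chosen members it has no p. With each library left out in turn it was between -1.10 and -0.97. Since the copies of a chain differ in annotated length, the ratio per kb depends in part on how reads were split between them. The ratio of summed CPM, without division by length, does not depend on that split, and was 1.26, 1.12 and 1.137 with dox and 2.60, 2.24 and 2.61 without. Its groups did not overlap either, and the difference in mean log2 ratio was -1.08. Whether either ratio depends on the beta globin haplotype of the mice, which is not given, was not tested.

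Neither sum by itself separated the groups. Summed alpha was 58.2, 147.1 and 141.3 CPM with dox and 150.5, 123.6 and 116.4 CPM without. Summed beta was 46.0, 131.8 and 124.2 CPM with dox and 57.8, 55.1 and 44.6 CPM without. Dox-treated replicate 1 was the lowest of the 6 libraries for alpha but within the untreated range for beta, and the other two dox-treated libraries were within the untreated range for alpha and above it for beta. Alpha made up 61.2%, 58.7% and 58.7% of adult globin per kb with dox and 76.0%, 72.6% and 75.8% without.

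The split within each chain also differed between groups. *Hba-a1* took 33.9%, 28.5% and 35.3% of alpha CPM with dox and 41.3%, 50.03% and 46.5% without. *Hbb-b1* took 58.1%, 63.2% and 60.2% of beta CPM with dox and 49.9%, 38.9% and 48.6% without. The groups did not overlap for either share, but both rest on the assignment of reads between near-identical copies and are uncertain. How often such shares separate the groups for other pairs of genes was not computed.

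**Figure D3:**
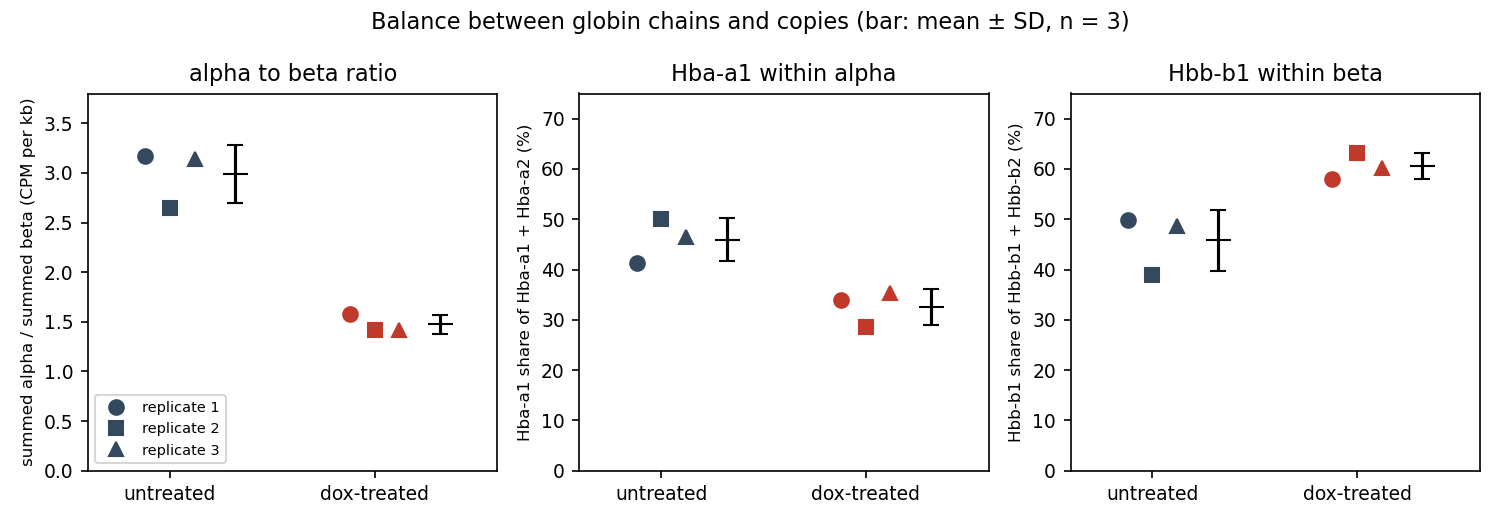
The left panel plots summed alpha over summed beta transcripts in CPM per kb, and the middle and right panels the share in percent of *Hba-a1* among alpha and of *Hbb-b1* among beta CPM, by library, with bars for the mean ± SD of 3 libraries and axes from 0. In each panel the 3 dox-treated libraries lie apart from the 3 untreated ones, at 1.42 to 1.58 against 2.65 to 3.17 in the left panel. Among single genes the groups did not overlap for 36% of those tested.

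Across the 6 libraries the genes most like each globin gene in their log2 levels, out of 9987 whose mean was 5 CPM or more, were taken as a description. For *Hba-a1* they were *Med27* (Pearson's r = 0.987), *Degs1*, *Zfp593*, *Gpr180* and *2610002M06Rik* (0.971), and for *Hba-a2* *Tmem184c* (0.949), *Tor1aip2*, *Zfp746*, *Ing2* and *Gm2382* (0.914). For *Hbb-b1* they were *Zbtb8a* (0.984), *Edem3*, *Praf2*, *Usp33* and *Cgrrf1* (0.971), and for *Hbb-b2* *Fam59a* (0.979), *Tube1*, *Arfip2*, *Poc5* and *Bloc1s2* (0.928). Among the globins themselves r was 0.83 between *Hbb-b1* and *Hbb-b2*, 0.84 between *Hba-a2* and *Hbb-b2*, 0.69 between *Hba-a2* and *Hbb-b1*, 0.64 between the alpha copies, 0.43 between *Hba-a1* and *Hbb-b2* and -0.05 between *Hba-a1* and *Hbb-b1*. All points share the same 6 libraries, and the values of copies share reads.

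Among factors that act at the globin loci, most had a lower mean with dox, but few passed the test. Of 40 such genes 38 were tested, 28 had a lower mean with dox, 1 was called higher and 1 lower (background 4.59% and 3.18% of all genes), and the median log2 fold change was -0.20 against -0.03 for all genes. *Sox6*, a repressor of embryonic beta-like globin, rose from 18.0, 20.5 and 20.5 CPM in the untreated libraries to 26.4, 34.5 and 32.9 CPM with dox (log2 fold change 0.66, adjusted p = 0.047, limma). *Ssbp3*, a partner of the *Ldb1* complex, fell from 149.4, 168.0 and 162.1 CPM to 107.0, 99.2 and 108.6 CPM (log2 fold change -0.61, adjusted p = 0.029, limma). For neither gene did the groups overlap. Both counts depend on the libraries included, since the list had 9 calls without dox-treated replicate 3 and 0 when any of the other 5 libraries was left out. Calls over all 12088 genes moved the same way. They were 1801 higher and 1687 lower without dox-treated replicate 3, and 92 to 143 higher and 36 to 126 lower without another library.

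The remaining factors named did not pass the threshold. *Klf1*, the erythroid activator that binds CACCC in the beta globin promoter, was at 195.7, 190.9 and 310.6 CPM with dox and at 338.6, 384.8 and 314.4 CPM without. Dox-treated replicate 3 was close to the untreated libraries and the other two were well under them (log2 fold change -0.61, adjusted p = 0.13, limma). *Gata1*, the master regulator of erythroid genes, was at 159.3, 149.2 and 206.9 CPM with dox and 220.3, 245.0 and 223.2 CPM without, with no overlap (log2 fold change -0.43, adjusted p = 0.13, limma). Log2 fold changes were -0.19 for *Tal1* (adjusted p = 0.36, limma), -0.49 for *Zfpm1*, the cofactor of *Gata1* (0.12), -0.21 for *Ldb1*, which joins enhancer and promoter (0.36), and -0.13 for *Nfe2*, which binds the globin enhancers (0.63). Among repressors, they were -0.19 for *Bcl11a* (adjusted p = 0.25, limma), -0.49 for *Zbtb7a* (0.11) and 0.14 for the heme-responsive *Bach1* (0.41), and -0.32 for *Myb*, a factor of progenitors (0.26).

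The neighbours of the alpha cluster on chromosome 11 did not pass the threshold either. Of 6 genes 4 were tested and none was called in limma (7.77% of all genes), 1 had an unadjusted p under 0.05 (29.2% of all genes), and the median log2 fold change was 0.17. *Nprl3*, whose introns hold the major alpha globin enhancers, was at 43.4, 47.4 and 40.4 CPM with dox and 31.7, 32.9 and 37.9 CPM without. Its groups did not overlap (log2 fold change 0.36, adjusted p = 0.12, limma). The log2 fold changes of *Mpg*, a DNA glycosylase gene, and *Snrnp25*, a component of the minor spliceosome, were 0.20 and 0.14 (adjusted p = 0.38 and 0.57, limma). *Sh3pxd2b*, the fourth gene tested and named after its values were seen, had the largest difference of the 4, at -0.63 (adjusted p = 0.22, limma), so that 3 had a higher mean with dox and 1 a lower. *Mpg* lies within *Nprl3* on the opposite strand and the use of strand in counting is not given in the sources used here, so reads of these genes are uncertain. *Rhbdf1* has no row in the table.

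**Figure D4:**
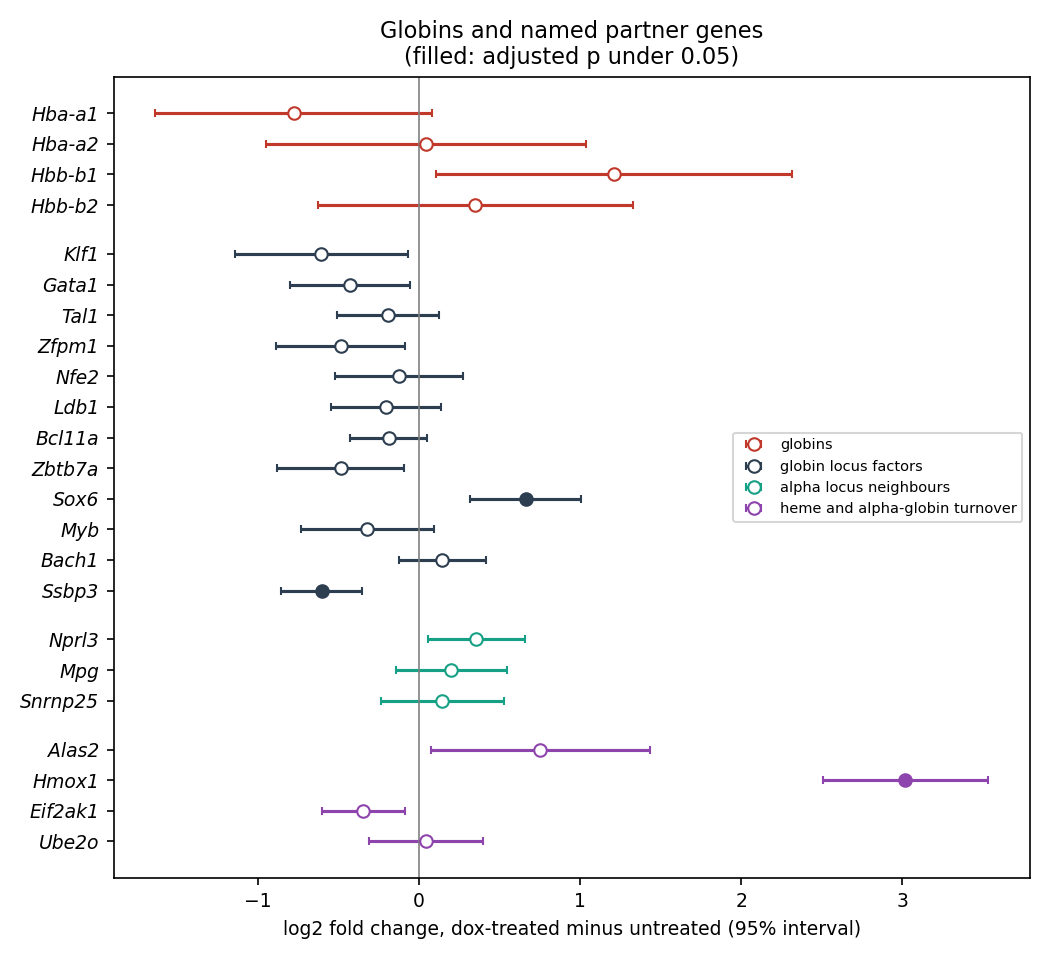
The x axis is the log2 fold change of dox-treated minus untreated libraries with its 95% interval (limma, 3 libraries a group) for the adult globin genes and for named factors, neighbours and heme genes, and a filled point has an adjusted p under 0.05. The globin intervals are wider than those of the other genes shown, and *Hmox1*, *Sox6* and *Ssbp3* are the filled points.

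Genes of heme synthesis, heme breakdown and removal of unpaired chains had a single call, higher with dox, among the 27 tested of 28 (4.59% of all genes were called higher and 3.18% lower), with 18 lower in mean and a median log2 fold change of -0.12. The list had 13 calls without dox-treated replicate 3 and 1 when any of the other 5 libraries was left out. Over all 12088 genes, calls were 1801 higher and 1687 lower without dox-treated replicate 3. Without another library they were 92 to 143 higher and 36 to 126 lower. *Hmox1*, heme oxygenase, which breaks heme down, was at 6.92, 9.45 and 5.65 CPM with dox (94, 127 and 88 reads) and 0.778, 0.961 and 0.819 CPM without (10, 13 and 9 reads). All dox-treated libraries were far above all untreated ones, and it rose by 3.02 on the log2 scale (adjusted p = 0.0044, limma). *Alas2*, the erythroid enzyme that opens heme synthesis, had few reads, with 61, 110 and 97 with dox and 44, 64 and 32 without (log2 fold change 0.75, adjusted p = 0.14, limma). *Eif2ak1*, the kinase that restrains globin translation when heme is short, differed by -0.35 on the log2 scale (adjusted p = 0.095, limma), and *Ube2o*, which marks unpaired alpha chains for removal, by 0.04 (0.87).

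Erythroid membrane and late erythroid genes were called in both directions. Of 33 rows for 32 genes, 2 were called higher and 5 lower (4.59% and 3.18% of all genes), 22 had a lower mean with dox, and the median log2 fold change was -0.25. The 5 with the smallest p-values were *Ermap*, an erythroblast membrane protein (log2 fold change -0.77, adjusted p = 0.024, limma), *Trim58*, a ubiquitin ligase of late erythroblasts (-0.85, 0.029), *Add2*, beta adducin of the membrane skeleton (-1.19, 0.035), *Epb4.2*, which anchors that skeleton (-1.58, 0.035), and *Bpgm*, whose product lowers the oxygen affinity of hemoglobin (0.67, 0.036). *Epb4.2* was at 6.41, 8.19 and 13.99 CPM with dox and at 27.4, 29.8 and 24.4 CPM without, and *Bpgm* at 28.4, 35.5 and 34.8 CPM with dox and 20.8, 19.7 and 21.2 CPM without. The 7 calls became 19 without dox-treated replicate 3 and 0 or 1 when any of the other 5 libraries was left out. All 12088 genes together had 1801 calls higher and 1687 lower without dox-treated replicate 3. Without another library they had 92 to 143 higher and 36 to 126 lower. *Slc4a1* did not pass (log2 fold change 0.17, adjusted p = 0.74, limma). Whether the globins differ from this list was not tested.

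**Figure D5:**
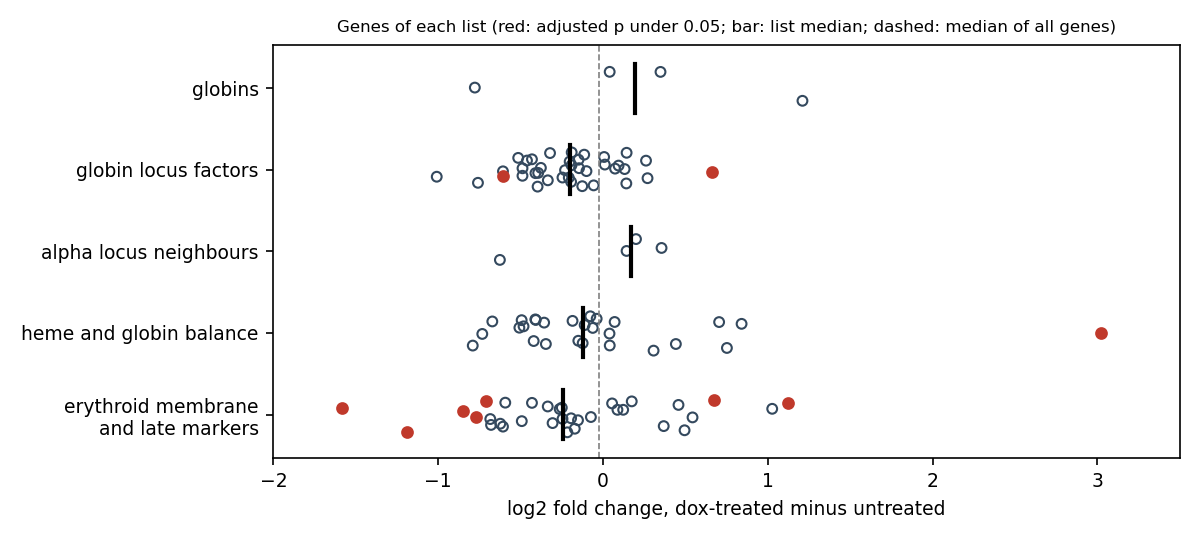
Each point is a gene of the named list at its log2 fold change, dox-treated minus untreated (x axis, limma, 3 libraries a group), red where the adjusted p is under 0.05, with a black bar at the list's median and a dashed line at the median of all genes, -0.03. The 4 globin genes spread to both sides of the dashed line from -0.78 to 1.21, and no globin gene is red.

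Of 10 further globin symbols none has a row in the table. They include myoglobin, neuroglobin, cytoglobin and the theta chain genes, and also *Hbb-bs* and *Hbb-bt*, the RefSeq names for the adult beta genes described above. Among markers of other cell types, genes of granulocytes and monocytes, of mast cells and of megakaryocytes were called, the last in both directions. Lineage- cells had been sorted, and which cells carried these transcripts was not measured. Over all genes 4.59% were called higher and 3.18% lower. Of 14 granulocyte and monocyte markers, 10 were called lower and none higher, with summed levels of 523.4 to 786.0 CPM with dox and 2431 to 5601 CPM without, and *Elane*, neutrophil elastase, differed by -3.22 on the log2 scale (adjusted p = 0.011, limma). Of 5 mast cell markers tested 3 were called higher, while 4 had a higher mean with dox and 1, *Mcpt8*, a lower. Summed levels were 238.3 to 439.8 CPM with dox and 74.5 to 146.5 CPM without. *Gata2* had the largest mean of the 5, at 219.2 CPM with dox and 79.6 CPM without, and was not called (adjusted p = 0.070, limma). *Cpa3*, a mast cell protease, differed by 2.93 on the log2 scale (adjusted p = 0.0096, limma). Of 10 megakaryocyte markers tested 2 were called higher, *Gp9* and *Gp1ba*, and 1 lower, *Vwf* (log2 fold changes 1.28, 0.90 and -1.31, adjusted p = 0.032, 0.049 and 0.018, limma), and 8 had an unadjusted p under 0.05. Their sums were 189.7 to 484.4 CPM with dox and 130.4 to 166.7 CPM without. With dox *Itga2b* had the largest mean of them, at 233.3 ± 144.2 CPM against 33.6 ± 8.28 CPM without (SD, n = 3). It was not called (adjusted p = 0.069, limma). Of 4 lymphoid markers none was called (limma, with none at an unadjusted p under 0.05), at sums of 6.93 to 15.7 and 7.01 to 11.4 CPM. The defining markers *Cd3e*, *Cd4* and *Cd8a* of T cells and *Tpsab1*, *Tpsb2*, *Cma1* and *Fcer1a* of mast cells have no row. The part of these cells in the globin values and in the alpha to beta ratio was not tested.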

How the data were processed

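RNA-seq of sorted MEPs was analysed, with 3 dox-treated and 3 untreated samples grouped by their labels. The authors trimmed adapters (Cutadapt), quantified reads against Ensembl transcripts of NCBIM37 (RSEM) and normalized with limma. The deposited values are log2 CPM with 0.5 reads added, for 12101 genes. Read length and use of strand are not given in the sources used here. Reads were recovered from the values (100% whole within 0.001) and used for depth and precision weights.

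limma (version 3.58.1, R 4.3.3) was fitted to the deposited log2 values of 12088 genes that reached 1 CPM in 3 libraries or more, without a block, with Benjamini–Hochberg adjustment over all of them at 0.05, and was tested on simulated data. Fold changes keep the 0.5 added reads, which understates those of low genes. Levels per kb used the longest transcript of the annotation. Sequences came from NCBIM37 and RefSeq. Tables were made with Python 3.11.15 and pandas 2.3.3.

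The members and gene lists were chosen with earlier results of these data known. *Polr3k*, on chromosome 2 in the annotation, was taken out of the alpha cluster's neighbours after its values were seen. Named genes were all members, *Nanog*, a set of locus and heme genes, up to 5 called genes per list by smallest p, and the 5 genes most like each member. *Slc4a1*, *Epor*, *Car1* and *Kit* were named as defining markers, and *Elane* and *Cpa3* as called markers. Alternatives changed the pseudocount, filter, variance model, weights, scaling, block and libraries.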

Additional observations from a re-analysis of the deposited data

How the results depend on the processing

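Over 17 alternatives *Hba-a1* stayed lower with dox and *Hbb-b1* and *Hbb-b2* higher in mean, with adjusted p (limma) of 0.062 to 0.40, 0.032 to 0.35 and 0.13 to 0.89. For *Hba-a2* it was 0.28 to 0.97. With each library left out, log2 fold changes were -1.04 to -0.37 for *Hba-a1*, -0.23 to 0.49 for *Hba-a2*, 0.91 to 1.73 for *Hbb-b1* and 0.12 to 0.80 for *Hbb-b2*. *Hba-a2* turned to -0.19 with array quality weights, -0.23 without dox-treated replicate 2, -0.13 without dox-treated replicate 3, -0.05 without untreated replicate 2 and -0.04 without untreated replicate 3. *Hbb-b1* passed only without dox-treated replicate 1 (1.73, adjusted p = 0.032, limma). The alpha to beta difference, for which 7 alternatives apply, was -1.08 without division by length and -1.10 to -0.97 with each library left out. Scaling to total reads moved the median of all genes by 0.11, and 68.8% of calls were then higher with dox, against 59.1%.

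Over all genes, 555 were called higher and 384 lower. The counts were 2515 and 2601 with array quality weights, 909 and 747 with a mean-variance trend, and 92 to 1801 and 36 to 1687 with each library left out, the highest without dox-treated replicate 3. Calls among locus factors, 2 in the fit reported, were 3 with a mean of at least 5 CPM, 6 with the trend, 16 with array weights, 5 with voom precision weights and 0 to 9 with each library left out. Among neighbours, none in the fit reported, there was 1 with array weights and 1 with quantile normalization. Among heme genes, 1 in the fit reported, they were 3 with log2(CPM + 1) or a mean of at least 5 CPM, 7 with the trend, 15 with array weights, 2 with quantile normalization, 5 with voom weights and 1 to 13 with each library left out. Among erythroid genes, 7 in the fit reported, they were 21 with array weights and 0 to 19 with each library left out. The cause was not tested.

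Same-numbered replicates did not deviate together (r = 0.02, -0.12 and -0.30), so the numbers were not taken as pairs. With the replicate block, 53 genes were called higher and 29 lower, and calls among locus factors, heme genes and erythroid genes were 0, 1 and 0. The adjusted p with the block (limma) was 0.29 for *Hba-a1*, 0.97 for *Hba-a2*, 0.26 for *Hbb-b1* and 0.61 for *Hbb-b2*. With voom precision weights and the replicate block together, chosen after seeing the data, locus factors had 1 call, heme genes 3, and all genes 575 higher and 351 lower. The ratio without same-numbered libraries was not run, and the list of other globin genes gave no values. Between 238 and 1425 reads stood behind each globin value, so that the spread between libraries, more than counting error, limits these comparisons.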
